A study of Mus musculus with 4 samples.

Results

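ASB2 is the substrate receptor of a cullin-RING ubiquitin ligase, and 8 of the 24369 genes listed in the data were followed here as the parts, targets and close relatives of that ligase. They were *Asb2* itself, *Cul5* and *Rnf7* as the scaffold and RING subunit, *Flna* as the gene of the best known substrate, and *Asb1*, *Asb3*, *Asb6* and *Asb8* as expressed members of the same receptor family. All 8 had enough counts to enter the comparison. *Asb2* was chosen by its difference between the vectors in these same libraries, and the other 7 were chosen by their role with the results of the same libraries known. Their differences between the vectors are therefore given as descriptions with no p-value, and counts of these genes past a threshold support nothing.

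Cullin-RING ligases attach ubiquitin to proteins that a receptor subunit holds in place. In the cullin 5 branch, receptors carry a SOCS box, which binds the elongin B and elongin C adaptors and the cullin, and RNF7 brings in the ubiquitin-loaded enzyme at the other end of the scaffold. ASB2, an ankyrin repeat protein with a SOCS box, is known for directing the degradation of filamins, the long proteins that crosslink actin and bind integrin tails, in blood cells and in muscle. Filamins are removed as proteins, so transcript levels do not report on that step.

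The 4 libraries came from wild-type (WT) C57BL/6 mouse spleen. Naïve CD4 T cells were activated for 2 days without polarizing cytokines, on plates coated with anti-CD3, with anti-CD28 in solution and human IL-2 per the methods. They were then transduced with an MSCV retrovirus carrying GFP alone (EV RV, 2 libraries) or Tox and GFP (Tox RV, 2 libraries). On day 5 the cultures were restimulated for 5 h and GFP+ CD4 T cells were sorted. For this step the paper's methods name anti-CD3, and its results text names anti-CD3 and anti-CD28. Thus both groups shared the mouse strain, the culture, the viral backbone and the GFP sort, and differed by the Tox insert. Tox was driven by the retroviral promoter and not by its own gene, the age of the mice was not given for these cultures, and each group represented 2 mice.

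Total expected counts, the number of fragments that RSEM assigned to genes, ranged from 46989997 to 74548723 per library. Where 2 values of a group are given, replicate 1 comes first. *Tox*, the transduced gene, was at 7.22 and 3.37 transcripts per 1000000 (TPM) with EV RV, and with Tox RV it was at 69.1 and 56.9 TPM, in the direction of the labels. One library stood apart. EV RV replicate 1 lay at -53.8 on a first principal component that held 58% of the variance, against 5.7 to 25.8 for the others, and 24.7% of its counts lay in the ribosomal RNA gene *Rn45s*, against 12% in EV RV replicate 2 and 10.3% and 7.14% in the Tox RV libraries. Differences that it moved by more than 1.5 times, or turned in sign, are also given with that library left out. No gene of the 14143 tested passed an adjusted p of 0.05 in edgeR's quasi-likelihood test (0%), with 512 at an unadjusted p under 0.05. DESeq2's Wald test called 22 (0.121% of 18183). Even *Tox*, at a log2 fold change of 3.68, had an edgeR adjusted p of 0.49, against a DESeq2 adjusted p of 3.79e-24. A gene that edgeR did not call is therefore not shown to be unchanged. In bulk RNA, fewer cells of a type and less RNA per cell cannot be told apart. The 6 measured CD4 T cell markers summed to between 1296 and 1913 counts per 1000000 (CPM, scaled by the TMM method), B cell markers to at most 1.62 CPM and muscle markers to at most 1.77 CPM, with *Ms4a1*, *Pax5* and *Mb* listed at 0 in all libraries.

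*Asb2* lies on chromosome 12 (mm10, chr12:103321142-103356001, minus strand), and RefSeq gives it 2 starts of transcription that are 17611 bases apart. The authors' reference held 1 *Asb2* transcript, of 2707 bases, whose start is not given in the data. In the GENCODE annotation of the same build, the transcript from the distal start has 2690 exonic bases. A shorter protein-coding transcript that begins near the internal start shares 2091 of its 2283 exonic bases (91.6%) with that longer one. If the counted transcript is the longer one, reads from most of either transcript were counted together. The *Asb2* value does not say which start was used. The 250 bases before each start are shown, because they are the sequences from which the *Asb2* transcripts described next would begin. They are written 5′ to 3′ on the gene's strand and come from RefSeq (GRCm38.p6, the assembly behind mm10).
*Asb2* distal start, chr12:103356002-103356251: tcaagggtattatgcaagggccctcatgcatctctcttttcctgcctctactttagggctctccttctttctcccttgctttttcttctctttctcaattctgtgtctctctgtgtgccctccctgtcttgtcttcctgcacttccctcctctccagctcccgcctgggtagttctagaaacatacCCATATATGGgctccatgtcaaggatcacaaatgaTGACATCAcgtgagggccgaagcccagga
*Asb2* internal start, chr12:103338391-103338640: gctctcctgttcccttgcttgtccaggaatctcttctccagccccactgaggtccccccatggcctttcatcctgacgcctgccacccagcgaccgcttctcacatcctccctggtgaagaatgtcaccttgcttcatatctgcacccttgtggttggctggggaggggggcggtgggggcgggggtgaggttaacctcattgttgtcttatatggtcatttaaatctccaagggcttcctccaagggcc
Capitals mark matches to motifs, searched on both strands. The distal window held a CArG box, the sequence known to bind serum response factor, beginning 64 bases before the start, and 1 match to TGACNTCA, a CREB and ATF sequence, beginning 29 bases before it. Among 32851 RefSeq windows of the same length, 1.47% held a CArG box and 7.49% held TGACNTCA. This pair of motifs was added to the search after the sequences had been read. The internal window held neither. Neither window held TGANTCA, the AP-1 sequence of BATF and JunB, which 6.75% of all windows held. AANNGAAA, an IRF core, was also absent from both and present in 21.3% of all windows. The retinoic acid receptor sequence AGGTCA (14% of all windows) had no match. The same was true of the GATA sequence AGATAA (9.99%). There was likewise no match to TGGGAA, the RBPJ sequence (21.6%). The matches did not overlap each other. A match is a description of letters and not a bound site.

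*Asb2* was present in both groups, and each Tox RV library held more of it than either EV RV library. Its level was 31.3 TPM in EV RV replicate 1 and 23.7 TPM in EV RV replicate 2. It was 152 TPM in Tox RV replicate 1 and 76.3 TPM in Tox RV replicate 2. Thus the groups did not overlap, and the lower Tox RV library was still above the higher EV RV library, while the Tox RV libraries differed from each other by more than the EV RV libraries did.

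These levels rested on 2020, 2901, 15966 and 6576 expected counts in the same order, so counting error was small beside the spread between libraries. In CPM the means were 43.0 ± 6.91 in EV RV and 190 ± 88.8 in Tox RV (SD, n = 2 each). The log2 fold change of Tox RV over EV RV was 2.14 with a standard error of 0.36, which is a 4.41-fold difference. Leaving out each library in turn gave log2 fold changes from 1.56, without Tox RV replicate 1, to 2.56, without Tox RV replicate 2, and 2.31 without EV RV replicate 1. With the counts of *Rn45s* left out it was 2.13. Within the Tox RV group, replicate 2 lay 0.99 below replicate 1 on the log2 CPM scale, a gap as large as or larger than that of 95.9% of all genes tested. Between the EV RV replicates the gap was -0.33, at the 44.4th percentile.

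The replicate numbered 1 had the higher *Asb2* level within each group. The same held for *Tox*, and for the summed CD8 T and NK cell markers, 7 genes with *Ncr1* at 0 in all libraries, which stood at 56.9 and 16.6 CPM with EV RV and at 33.0 and 11.3 CPM with Tox RV. *Klrk1* was the largest part of that sum in each library, at 36.6 and 10.5 CPM with EV RV and 17.2 and 4.86 CPM with Tox RV. *Cd8a* went the other way, at 1.5 and 2.1 CPM with EV RV and 1.6 and 1.8 CPM with Tox RV. Myeloid and dendritic markers, 10 genes, summed to 14.1 and 8.70 CPM with EV RV and to 9.96 and 7.29 CPM with Tox RV. Most of that sum was *Zbtb46*, at 12.1 and 6.32 CPM with EV RV and 7.76 and 5.49 CPM with Tox RV. No other gene of the list passed 1.25 CPM. *Adgre1* was higher in replicate 2, at 0.19 and 1.25 CPM with EV RV and 0.60 and 0.64 CPM with Tox RV. These marker sums overlapped between the vectors, and their part in the *Asb2* difference was not tested.

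**Figure D1:**
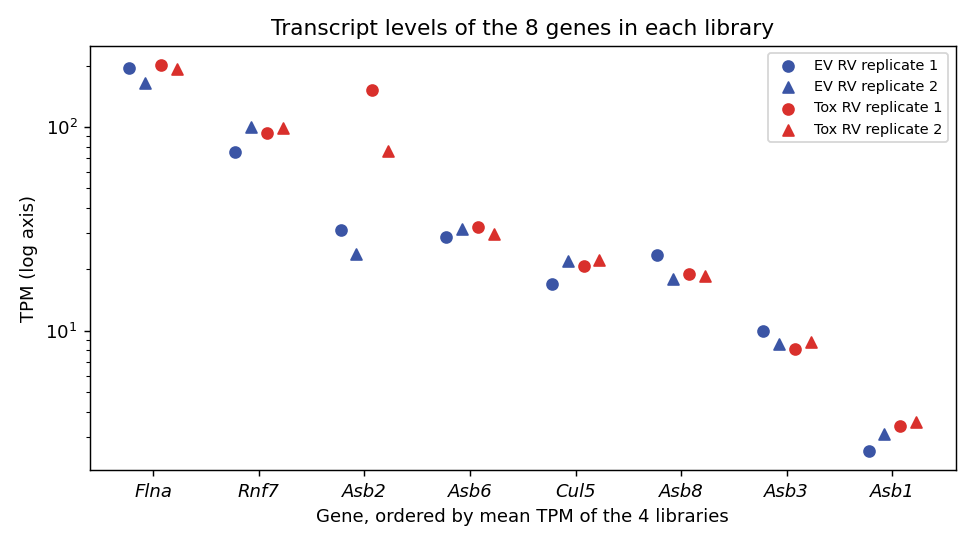
TPM (log axis) of the 8 genes in each library, ordered by mean TPM, with EV RV in blue, Tox RV in red, circles for replicate 1 and triangles for replicate 2. *Asb2* is at 23.7 to 31.3 TPM in EV RV and 76.3 to 152 TPM in Tox RV, while the points of each other gene lie close together.

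By mean TPM over the 4 libraries the order was *Flna* (188), *Rnf7* (92.1), *Asb2* (70.7), *Asb6* (30.6), *Cul5* (20.5), *Asb8* (19.7), *Asb3* (8.88) and *Asb1* (3.16). TPM corrects for transcript length, so genes can be compared on it. The libraries of *Cul5* and *Asb8* overlapped, and so did those of *Asb2* with both of its neighbours, whereas *Flna* and *Rnf7*, *Asb6* and *Cul5*, *Asb8* and *Asb3*, and *Asb3* and *Asb1* were separated in all 4 libraries. By the mean of the EV RV libraries *Asb2* ranked 4, below *Asb6*, although it was above *Asb6* in EV RV replicate 1. From its lowest to its highest library *Asb2* spanned 6.41-fold, while the other 7 genes spanned from 1.11-fold (*Asb6*) to 1.39-fold (*Asb1*).

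*Cul5* (chr9:53614581-53667507, minus strand) encodes the scaffold of the ligase. Its level was 17.0 and 22.0 TPM with EV RV, and 20.7 and 22.3 TPM with Tox RV. The groups overlapped, and EV RV replicate 1 was the lowest library. The log2 fold change was 0.22 ± 0.21 (standard error), and leaving out EV RV replicate 1 gave 0.0064.

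*Rnf7* (chr9:96470937-96478675, minus strand), which encodes the RING subunit that recruits the ubiquitin-conjugating enzyme, had the same pattern. It was at 75.2 and 100.5 TPM in EV RV and at 93.2 and 99.2 TPM in Tox RV, again with EV RV replicate 1 as the lowest library and the groups overlapping. Its log2 fold change was 0.21 ± 0.22, and -0.02 when EV RV replicate 1 was left out. *Rnf7* TPM divided by *Cul5* TPM was 4.44, 4.56, 4.50 and 4.45, which is nearly the same ratio in each library.

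*Asb2* TPM divided by *Cul5* TPM came to 1.84 and 1.07 with EV RV, against 7.32 and 3.42 with Tox RV. Divided by *Rnf7* TPM, it came to 0.416 and 0.235 with EV RV, against 1.63 and 0.768 with Tox RV. At the transcript level the receptor thus exceeded the scaffold in all 4 libraries and exceeded the RING subunit in Tox RV replicate 1 only. These ratios carry the *Asb2* difference and are not separate support for it.

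The wider ligase, 25 genes of the core, its adaptors, the NEDD8 pathway that activates cullins and the COP9 signalosome that removes NEDD8, had a median log2 fold change of 0.14 beside 0.0036 over all genes tested, and -0.03 without EV RV replicate 1. None of the 25 was called by edgeR or DESeq2, and 0 had an unadjusted p under 0.05 in edgeR, beside 512 of all 14143 genes tested. In CPM, both Tox RV libraries were above both EV RV libraries for 6 of them and below for 1, beside 18.6% of all genes above and 17.4% below. *Tceb2*, which encodes elongin B, had the highest level (354 and 400 TPM in EV RV, 349 and 424 TPM in Tox RV). The highest log2 fold change was 0.37 ± 0.24, of the signalosome gene *Cops4* (edgeR adjusted p = 0.897, and 0.09 with EV RV replicate 1 left out), and the lowest was -0.47 ± 0.21, of *Dcun1d3*, which encodes a regulator of cullin neddylation (edgeR adjusted p = 0.897). The other cullins and *Rbx1*, 8 genes, had a median of 0.04, or -0.07 with EV RV replicate 1 left out, and their groups overlapped in all 8. Among them *Cul3* had the highest level (79.4 and 85.1 TPM in EV RV, 75.4 and 83.4 TPM in Tox RV), *Rbx1*, the RING partner of the other cullins, the highest log2 fold change (0.23 ± 0.25) and *Cul9* the lowest (-0.10 ± 0.25). Both turned in sign with EV RV replicate 1 left out, to -0.07 and 0.18.

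*Flna* (chrX:74223461-74249854, minus strand) encodes filamin A, the most widely expressed filamin. Its level was 194 and 164 TPM with EV RV, and 201 and 193 TPM with Tox RV. The groups overlapped in TPM, where EV RV replicate 1 was just above Tox RV replicate 2. In CPM, which is scaled by TMM, they did not overlap, at 954 and 849 against 1073 and 1027. The log2 fold change was 0.22 ± 0.16, from 0.14 to 0.30 when 1 library was left out.

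*Flnc*, the muscle filamin, had 3, 7, 8 and 6 expected counts and was too low to test. *Flna* TPM divided by *Asb2* TPM came to 6.21 and 6.95 with EV RV, against 1.33 and 2.53 with Tox RV. Like the ratios to *Cul5* and *Rnf7*, it carries the *Asb2* difference and is not separate support for it.

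**Figure D2:**
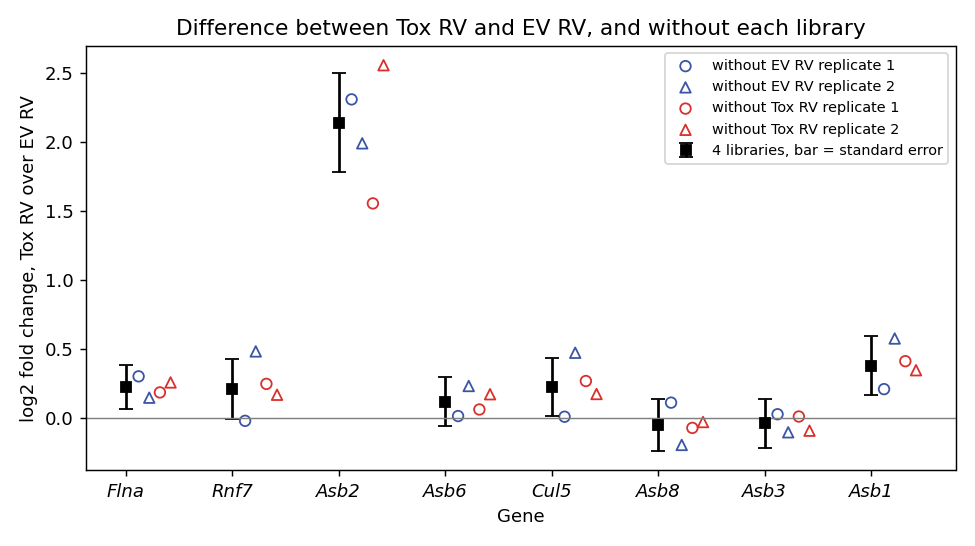
Log2 fold change of Tox RV over EV RV for each gene. Black squares use all 4 libraries with the standard error as bar, and open symbols leave out 1 library each; *Asb2* lies between 1.56 and 2.56 throughout, and the other genes lie between -0.20 and 0.57.

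Proteins that bind filamin or link actin to the membrane, 25 genes of which 23 were tested, had a median log2 fold change of -0.02, which became 0.12 with library totals, a scaling that moved the median of all genes to 0.124, and 0.06 with EV RV replicate 1 left out. None was called by either tool, and 0 had an unadjusted p under 0.05 in edgeR, beside 512 of all 14143 genes tested. Both Tox RV libraries were above both EV RV libraries for 5 and below for 4, beside 18.6% of all genes above and 17.4% below. *Actb* had the highest level (7449 and 6352 TPM in EV RV, 6864 and 6778 TPM in Tox RV). Among genes with a mean of at least 1 TPM in 1 group, the highest log2 fold change was that of *Itgb2*, the integrin beta chain of LFA-1 (0.34 ± 0.17), and the lowest that of *Fam101a*, now *Rflna*, a regulator of filamin in other tissues (-0.80 ± 0.36). The edgeR adjusted p was 0.897 for both.

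Other proteins described as ASB2 substrates or partners, 7 genes of which 6 were tested, had a median log2 fold change of -0.15, or -0.02 when EV RV replicate 1 was left out. None was called by either tool, and both Tox RV libraries were below both EV RV libraries for 2 and above for 0, beside 18.6% of all genes above and 17.4% below. *Jak2* had the highest level (178 and 156 TPM in EV RV, 165 and 151 TPM in Tox RV), with a log2 fold change of 0.0052 ± 0.16, or 0.06 with EV RV replicate 1 left out. *Skp2*, which encodes a receptor of cullin 1 ligases, had the highest log2 fold change (0.28 ± 0.36), which was -0.09 with EV RV replicate 1 left out. The lowest was that of *Tcf3*, which encodes the E2A transcription factors, at 89.8 and 47.4 TPM in EV RV and 29.2 and 36.7 TPM in Tox RV (-0.96 ± 0.31, edgeR adjusted p = 0.897, DESeq2 adjusted p = 0.41). It was the only gene of the 6 with an unadjusted p under 0.05 in edgeR, beside 512 of all 14143 genes tested. Its log2 fold change was -0.49 without EV RV replicate 1.

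*Asb1* (chr1:91540001-91559590, plus strand) was the lowest of the 8 genes. Its level was 2.56 and 3.11 TPM with EV RV, and 3.39 and 3.56 TPM with Tox RV. Both Tox RV libraries were higher, and EV RV replicate 1 was the lowest library. The log2 fold change was 0.38 ± 0.21, and leaving out EV RV replicate 1 gave 0.21.

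*Asb3* (chr11:30954392-31102704, plus strand), whose product is described to act on TNF receptor II, was at 9.97 and 8.57 TPM in EV RV and at 8.15 and 8.82 TPM in Tox RV. The groups overlapped, and the log2 fold change was -0.04 ± 0.18, or 0.085 with library totals, and 0.02 with EV RV replicate 1 left out. The span of *Chac2*, which had 124 to 336 counts per library, overlaps that of *Asb3* on the other strand. Genes on the other strand also overlap the spans of *Asb2* (*Gm15523*) and *Cul5* (*Gm22304* and *Gm16124*), and these are not listed in the data. Whether exons overlap was not examined and the use of strand is not stated, so it cannot be told whether reads were shared. *Asb6* (chr2:30823097-30828300, minus strand), whose product binds the insulin receptor adaptor APS, had the narrowest span of the 8 genes, at 28.8 and 31.6 TPM in EV RV and 32.1 and 29.9 TPM in Tox RV. Its groups overlapped, with a log2 fold change of 0.12 ± 0.18, or 0.01 with EV RV replicate 1 left out. *Asb8* (chr15:98134637-98165596, minus strand) was at 23.5 and 17.9 TPM in EV RV and at 19.0 and 18.6 TPM in Tox RV. The Tox RV levels lay between the EV RV levels. The log2 fold change was -0.05 ± 0.19, or 0.079 with library totals, and 0.11 when EV RV replicate 1 was left out.

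Of the 8 genes, 0 were called by edgeR's quasi-likelihood test, as were 0% of all genes, and 1, *Asb2*, was called by DESeq2, as were 0.121% of all genes. Both Tox RV libraries were above both EV RV libraries in CPM for *Asb2*, *Flna* and *Asb1*, 3 of the 8, and below for 0, beside 18.6% and 17.4% of all genes. Nothing is read from these counts, since the genes were chosen on the same contrast.

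Of the 18 ASB family genes listed, 9 were tested, 8 of them at a mean of more than 1 TPM in EV RV. *Asb11*, *Asb12* and *Asb18* were listed at 0 in all libraries. The median log2 fold change of the 9 was 0.12 (0.21 when EV RV replicate 1 was left out), and the groups did not overlap for 3, *Asb1*, *Asb2* and *Asb16*, all higher in Tox RV, beside 18.6% of all genes above and 17.4% below; *Asb2* was chosen on this contrast. *Asb16* rested on 3, 5, 12 and 13 expected counts (1.66 ± 0.67, edgeR adjusted p = 0.897) and was named after its values were seen. Leaving *Asb2* aside, *Asb16* was the only tested gene of the family with an unadjusted p under 0.05 in edgeR, beside 512 of all 14143 genes tested. *Asb14* had the lowest log2 fold change (-0.58 ± 0.57), with EV RV replicate 1 at 1.78 TPM and the others at 0.61 to 0.85 TPM, and the value was 0.29 with that library left out.

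Summed over the 18 genes, the ASB family was at 116 and 98.8 TPM in EV RV and at 231 and 153 TPM in Tox RV. Without *Asb2* the sum was 84.8 and 75.1 TPM in EV RV and 79.7 and 77.0 TPM in Tox RV, and the groups overlapped. *Asb2* made up 26.9% and 23.9% of the family's TPM with EV RV, against 65.5% and 49.8% with Tox RV. The family total separated the vectors with *Asb2* in it and did not without it. Since *Asb2* was chosen on this contrast, the total and the shares carry its difference and are not separate support for it.

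The 20 other SOCS box receptors, which use the same elongin adaptors, had a median log2 fold change of -0.13 over the 18 tested. None was called by either tool, and 0 had an unadjusted p under 0.05 in edgeR, beside 512 of all 14143 genes tested. Both Tox RV libraries were below both EV RV libraries for 6 and above for 0, beside 18.6% of all genes above and 17.4% below. *Socs1*, a feedback inhibitor of JAK signaling, had the highest level (188 and 264 TPM in EV RV, 190 and 189 TPM in Tox RV). *Spsb1* had the highest log2 fold change (0.60 ± 0.73), with EV RV replicate 1 at 0.94 TPM and the others at 4.65 to 5.38 TPM, and the value was -0.17 with that library left out. *Socs2* had the lowest (-0.87 ± 0.53, or -1.42 with that library left out), and its libraries overlapped at 30.3 and 77.1 TPM in EV RV and 18.8 and 37.6 TPM in Tox RV. Among all 38 SOCS box receptors *Asb2* ranked 7 and 9 by TPM in EV RV replicates 1 and 2 and 3 in both Tox RV libraries. Its share of their summed TPM was 3.59% and 2.60% with EV RV, against 17.4% and 9.96% with Tox RV. Both the rank and the share carry the *Asb2* difference and are not separate support for it.

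**Figure D3:**
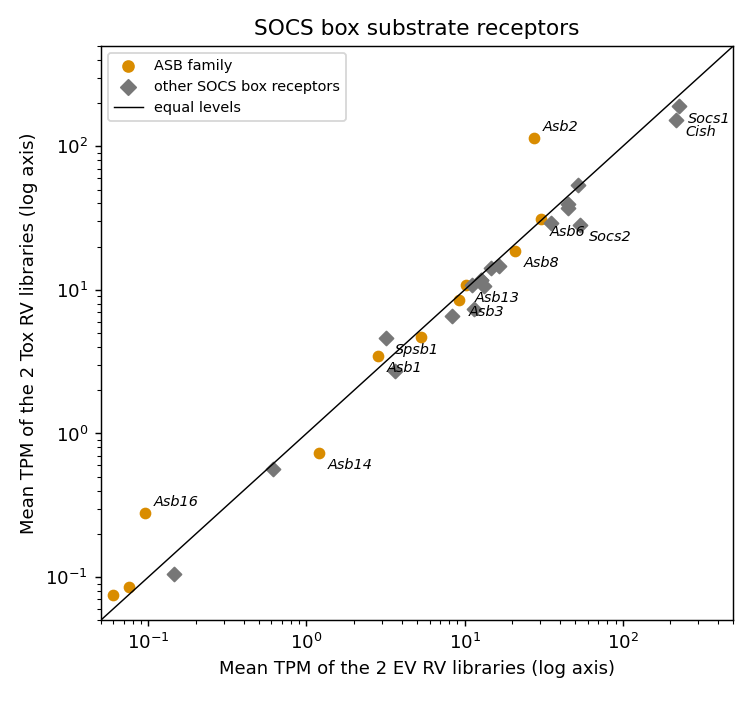
Mean TPM of the 2 Tox RV libraries against that of the 2 EV RV libraries (log axes) for the 30 SOCS box receptors with at least 0.05 TPM in both groups, ASB family in orange and other receptors in grey. *Asb2* lies farthest above the line of equal levels among receptors over 1 TPM, at 27.5 and 114 TPM, and most others lie near it.

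Genes of retinoic acid, Notch and GATA3 signaling, pathways reported to act upstream of *Asb2*, were 10, of which 9 were tested. Their median log2 fold change was -0.21, or -0.10 when EV RV replicate 1 was left out. None was called by either tool, and both Tox RV libraries were below both EV RV libraries for 4 and above for 0, beside 18.6% of all genes above and 17.4% below. Among those 4, *Dtx1* was low, at 0.33 and 0.26 TPM in EV RV and 0.22 and 0.21 TPM in Tox RV. *Rbpj*, the DNA-binding partner of Notch, had both the highest level (311 and 309 TPM in EV RV, 317 and 283 TPM in Tox RV) and the highest log2 fold change (0.04 ± 0.16, or -0.0031 with EV RV replicate 1 left out). *Rarg*, a retinoic acid receptor, had the lowest (-0.59 ± 0.40), with EV RV replicate 1 at 9.38 TPM and the others at 3.83 to 4.17 TPM, and the value was 0.12 with that library left out. *Notch2* was the only one with an unadjusted p under 0.05 in edgeR, beside 512 of all 14143 genes tested. It was at 65.2 and 49.5 TPM in EV RV and 40.4 and 37.6 TPM in Tox RV (-0.47 ± 0.19, edgeR adjusted p = 0.897, and -0.30 with EV RV replicate 1 left out).

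The genes whose pattern over the 4 libraries was most like that of *Asb2* were *Gcnt1*, *Xcl1*, *Gem*, *Adgrg5* and *Pdcd1*. Likeness was measured as the root mean square distance between log2 CPM values centred on each gene's own mean, among 11726 genes, and it came to 0.185, 0.265, 0.284, 0.297 and 0.31 in that order. *Gcnt1*, which encodes an enzyme that branches O-glycans, was at 1.5 and 0.92 TPM in EV RV and at 8.38 and 3.49 TPM in Tox RV. *Xcl1*, a chemokine gene, was at 148 and 85.7 TPM in EV RV and at 854 and 436 TPM in Tox RV. Both shared with *Asb2* the higher value in Tox RV replicate 1, which the choice by likeness favours.

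*Gem*, which encodes a small GTPase, was at 5.08 and 4.75 TPM in EV RV and at 22.5 and 8.86 TPM in Tox RV. *Adgrg5*, an adhesion receptor gene, was at 1.89 and 1.23 TPM in EV RV and at 5.28 and 3.45 TPM in Tox RV. *Pdcd1*, which encodes PD-1, was at 22.0 and 20.7 TPM in EV RV and at 75.9 and 61.8 TPM in Tox RV, with Tox RV libraries that lay closer together than those of *Asb2*. All 6 genes come from the same 4 libraries, so the likeness is a description over 4 points.

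**Figure D4:**
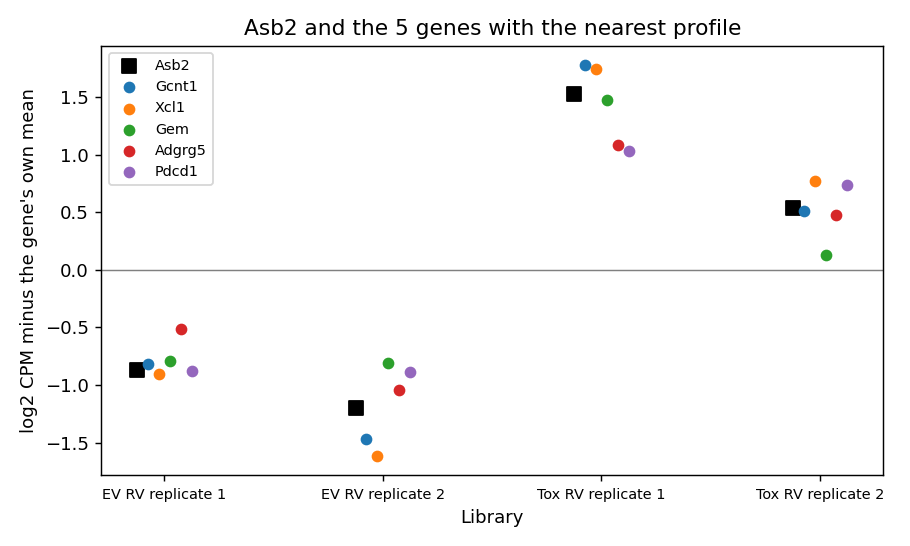
Log2 CPM of *Asb2* (black squares) and its 5 nearest genes (circles) in each library, each centred on the gene's own mean. *Asb2* is at -0.87, -1.20, 1.53 and 0.54 from left to right. In all 6 genes Tox RV replicate 1 is the highest library, which the choice of the 5 genes by likeness favours.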

How the data were processed

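RNA-seq libraries of sorted GFP+ CD4 T cells were grouped by the vector named in their labels, with 2 EV RV and 2 Tox RV libraries. Per the methods and labels, the authors ran FastQC, then bowtie against mm10 transcripts, then RSEM to estimate each gene in each library, and pooled no replicates. The processing notes also name Bowtie2, and versions and the use of strand were not given in the sources used here. The deposited expected counts are RSEM's estimated counts per gene, not normalized. The deposited TPM values are RSEM's transcripts per 1000000, corrected for length. A table of the whole series was not used.

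Expected counts were rounded and fitted in R 4.3.3 with edgeR 4.0.16 (filterByExpr with a minimum count of 10, TMM, glmQLFit and glmQLFTest, Benjamini-Hochberg over the 14143 genes tested, threshold 0.05). The fits were also run on simulated counts, with no library made to stand apart as EV RV replicate 1 did, and nothing is drawn from that run here. Alternatives were DESeq2 1.42.0 (the study's tool), limma 3.58.1 on log2(TPM + 1) and log2(TPM + 0.1), DESeq2's size factors, library totals, no filter, the replicate number as a block, *Rn45s* left out and each library left out.

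The 8 genes, the 8 pathway lists and the 5 marker lists were chosen with earlier results of these data known. Beside the 8 genes, *Tox* and the 5 genes most like *Asb2*, the text names from each list the gene with the highest mean TPM and, at 1 TPM or more in a group, those with the highest and lowest log2 fold change, the genes of lists of 5 or fewer, and list genes that a tool called. *Asb16*, *Notch2* and others named beside a count or a marker sum were chosen after their values were seen. One list gene that this rule names is not reported here. CPM is given with TMM scaling and log2 CPM with a prior count of 2. The EV RV libraries held 46989997 and 74548723 expected counts (replicate 1 first) and the Tox RV libraries 61442264 and 49012254. P-values set the difference between the vectors against the spread between these libraries, and the spread of each gene is estimated partly from other genes.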

Additional observations from a re-analysis of the deposited data

How the results depend on the processing

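With 2 libraries per group, calls depended on the test. Over the whole table, 0 genes were called by the quasi-likelihood test, 22 without the filter on low counts, 22 by DESeq2 and 16 under a replicate block, and from 1 (without EV RV replicate 1) to 600 (without EV RV replicate 2) when 1 library was left out. Of the 100 list genes tested, 0 were called in the quasi-likelihood test and 1, *Asb2*, without the filter, by DESeq2, with the block and without Tox RV replicate 2. Leaving out 1 library gave 0 to 6 list genes, the 6 being *Actn4*, *Kmt2a*, *Rarg*, *Spsb1*, *Tcf3* and *Zyx* without EV RV replicate 2. A group of 1 library is taken there to vary like the other group, and the cause of these shifts was not tested. The fit without EV RV replicate 2 had the most calls over the whole table, where it tested 14408 genes. Nothing is read from the list genes named for it. The labels do not say that a shared number means a shared mouse, and same-numbered libraries deviated from their group means with r = 0.302 over 14143 genes. The log2 fold change of *Asb2* was 1.56 to 2.56 with 1 library left out and 2.07 with the block. Library totals moved the median of all genes to 0.124, and *Asb3* and *Asb8* then stood at 0.085 and 0.079, against -0.04 and -0.05. Their sign also changed without EV RV replicate 1 (0.02 and 0.11), as did that of *Rnf7* (-0.02), and that of *Asb3* also without Tox RV replicate 1 (0.0079). *Asb2*, *Cul5*, *Flna*, *Asb1* and *Asb6* stayed above 0 under every alternative run, *Cul5* and *Asb6* only just (0.0064 and 0.01) without EV RV replicate 1, and the other SOCS box, substrate and upstream lists kept negative medians under library totals (-0.01, -0.02 and -0.08).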
